A study of Drosophila melanogaster with 2 samples.

Results

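The genes for the proteins of the cytoplasmic ribosome were examined in the binding map of Repo, the homeodomain transcription factor known as a master regulator of glial cells in the Drosophila embryo. Members were the protein-coding genes whose symbol is RpL, RpS or RpLP followed by a digit, together with sta, in the Ensembl annotation of the fly genome. There were 93 of 13945 protein-coding genes, 54 for the large subunit and 39 for the small subunit. Chromatin immunoprecipitation and sequencing (ChIP-seq) had been carried out with an antibody to green fluorescent protein (GFP) on whole embryos, males and females together, aged 0 to 24 hours. The description in the labels names GFP, while their antibody field reads repo. The embryos were of the repo-GFP strain, a transgenic line that stably expresses Repo with GFP fused to its C-terminus. This was the single group, with 2 biological replicates numbered 1 and 3; no other genotype, stage or treatment, and no untagged or input sample, was analysed here. Whole embryos were used, so the cell types that gave a peak cannot be told apart.

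Ribosomal proteins are made in nearly all cells in large and matched amounts. In Drosophila most are encoded by single genes, loss of an allele of many of these genes gives the slow-growing Minute phenotype, and several have a second copy elsewhere in the genome. Their promoters are known for a polypyrimidine initiator, also called the TCT motif, in place of the more usual initiator, and the promoter-binding factors Dref and M1BP are known at many of them. Small nucleolar RNAs (snoRNAs), which guide the modification of ribosomal RNA, are often encoded in the introns of these genes.

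The authors' peak lists on the genome build dm6 were used. The optimal list, which the authors kept after thresholding by the irreproducible discovery rate (IDR), held 2697 peaks, and the pooled list and each replicate's list held 30000. A gene was called bound when a summit of an optimal peak lay from 2 kb upstream of the gene to its end. The signal is the authors' peak caller's own value and has no stated scale. Here it ranks peaks within a list, and signals of the pooled list and of each replicate's list are not on 1 scale. All 2697 optimal peaks were among the 2697 highest of the pooled list, and bound members had the same rank in both. Signals of the optimal and pooled lists are therefore set side by side. A peak lay at the summit of 2681 optimal peaks in both replicates' lists. For 1874 of these it was among the 2697 highest of each replicate, so a bound gene need not rank high in each. Read counts were not among the values used, so the depth behind each peak is unknown.

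Of the 93 ribosomal protein genes, 57 were bound, or 61.3% (Wilson 95% interval 51.1 to 70.6, counting error only), beside 19.7% of all protein-coding genes. In the 2697 highest peaks of replicate 1 alone, 55 members had a summit, beside 20.1% of all genes. In the same number of peaks of replicate 3 the count was 57, beside 19.5%. The replicates named largely the same members, since 52 were in both lists and 60 in either. RpL7-like, RpS2 and RpS30 were in that of replicate 1 only, and RpL27A, RpL9, RpS19a, RpS27A and RpS7 in that of replicate 3 only. With any peak of the pooled list, 86 members had a summit (92.5%), beside 73.4% of all genes. With the 5000 highest pooled peaks the count was 70, beside 31.1%, and with the 1348 highest it was 44, beside 11.3%. Genes of related function were set beside them as counts alone: 21 of 73 mitochondrial ribosomal protein genes (28.8%) and 17 of 51 translation initiation and elongation factor genes (33.3%) were bound.

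The strongest peaks of the bound members lay between rank 51 and rank 2592 of the optimal list. Their strongest peaks had a median signal of 168 (lowest 85.9, highest 552, n = 57), beside a median of 134 over the 2694 other bound genes. Ranks 1 to 674 held 26 of the 57 strongest peaks, ranks 675 to 1348 held 18, ranks 1349 to 2022 held 9 and ranks 2023 to 2697 held 4. The 57 genes had 57 distinct strongest peaks, so no peak was counted for 2 members. RpL8 had 3 optimal summits, RpL13A and RpS28b had 2 each, and the other 54 bound members had 1.

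**Figure D1:**
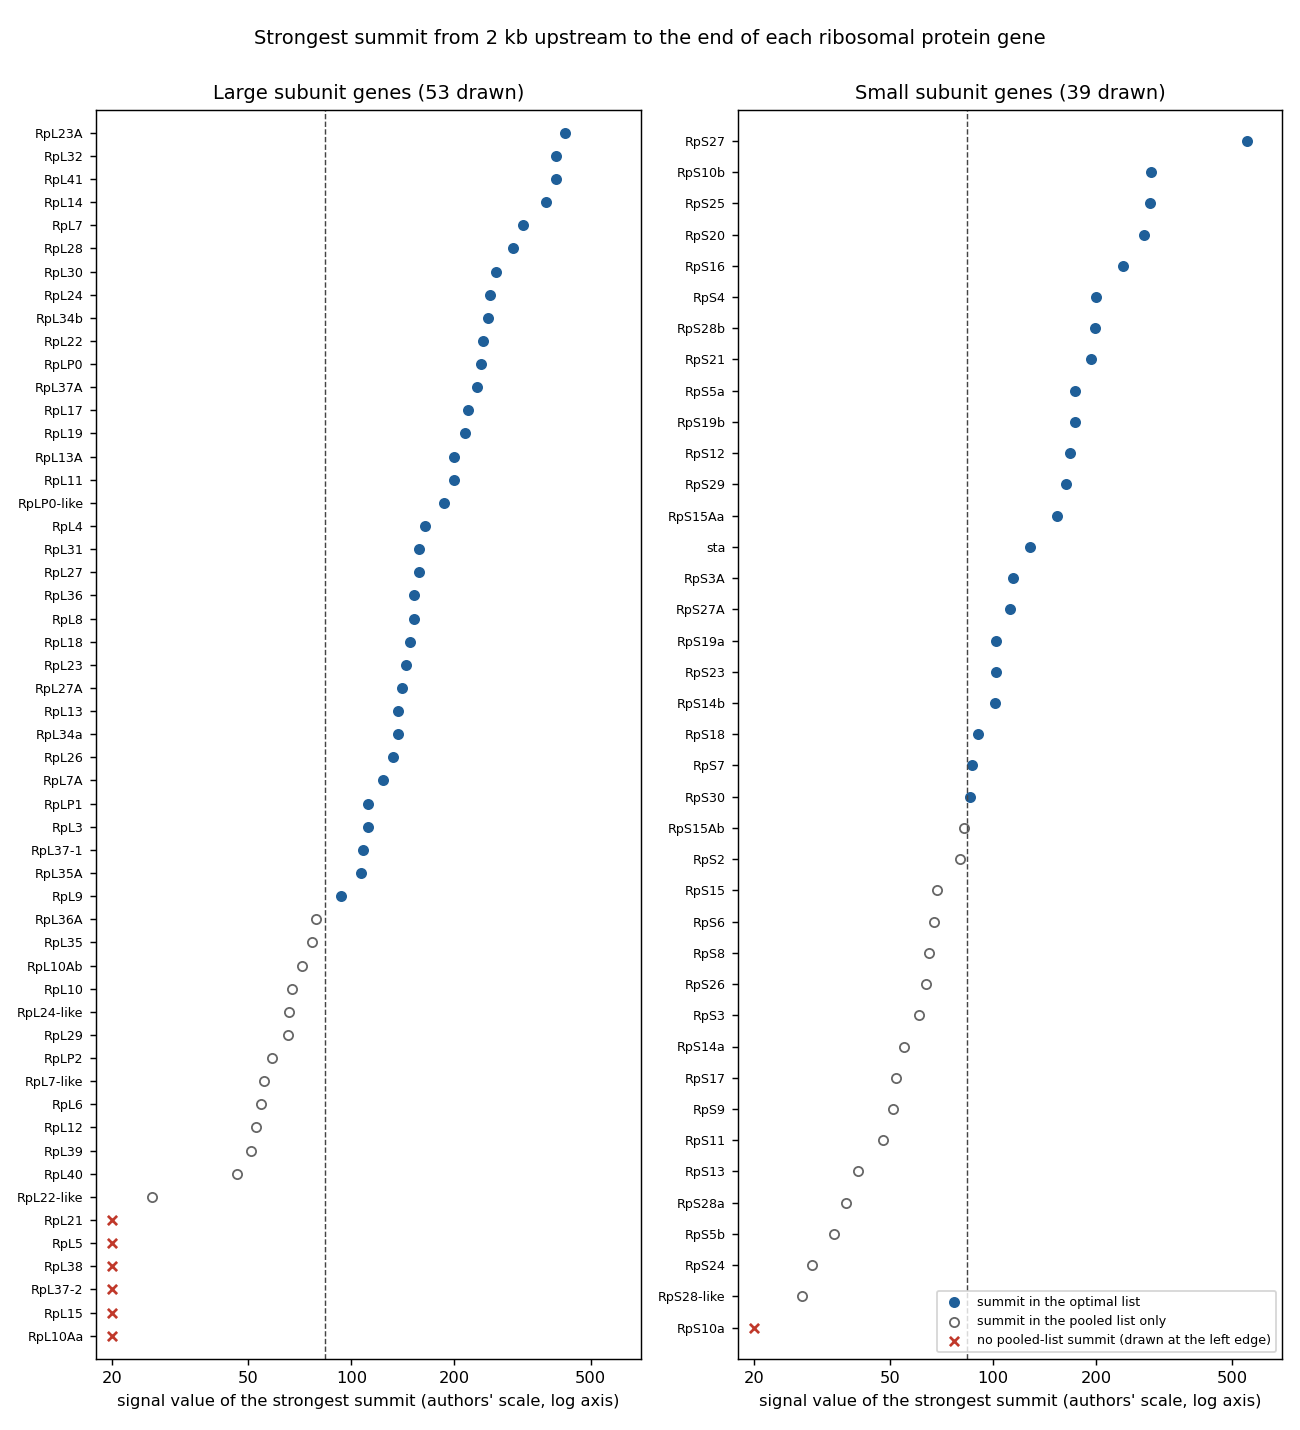
Signal value (log axis, the authors' scale) of the strongest peak summit from 2 kb upstream to the end of the ribosomal protein genes, all but 1 of the 93, large subunit on the left and small subunit on the right, in order of rank. Filled points are in the optimal list, open points in the pooled list only and crosses mark genes with no pooled summit; the dashed line is the lowest signal of the optimal list, 84.0, and RpS27 stands highest at 552.

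The start regions of 12 members show what lay under the peaks. RpS27, RpL23A, RpL14, RpL7 and RpL28 are among the 10 bound members of highest signal, RpLP0 and RpL37A hold an M1BP site, and RpS12 holds a Dref site. RpS14a and RpS14b are a pair of copies that encode the same protein, and RpL5 and RpL21 had no pooled peak. Each sequence runs from 100 bp before an annotated transcription start site (TSS) to 50 bp after it, 5' to 3' on the gene's strand, read from the dm6 reference; the start shown is the one nearest to the summit, or the gene's outermost start where there was no peak. Capitals mark the core of a polypyrimidine initiator (CCTTT or TCTTT) that lies at an annotated start, the M1BP site GGTCACAC and the Dref site TATCGATA.
RpS27 (chr3R:25247464-25247614, minus strand): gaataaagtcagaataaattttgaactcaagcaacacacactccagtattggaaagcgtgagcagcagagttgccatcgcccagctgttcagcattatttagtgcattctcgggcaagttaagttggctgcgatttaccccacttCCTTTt
RpL23A (chr3L:1668604-1668754, minus strand): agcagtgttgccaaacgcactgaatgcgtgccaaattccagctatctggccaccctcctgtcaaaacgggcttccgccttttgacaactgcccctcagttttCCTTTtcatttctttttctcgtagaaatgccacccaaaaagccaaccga
RpL14 (chr3L:8600906-8601056, plus strand): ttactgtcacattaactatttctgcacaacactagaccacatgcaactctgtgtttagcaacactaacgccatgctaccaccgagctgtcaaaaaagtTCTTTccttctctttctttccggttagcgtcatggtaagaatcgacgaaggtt
RpL7 (chr2L:10201000-10201150, plus strand): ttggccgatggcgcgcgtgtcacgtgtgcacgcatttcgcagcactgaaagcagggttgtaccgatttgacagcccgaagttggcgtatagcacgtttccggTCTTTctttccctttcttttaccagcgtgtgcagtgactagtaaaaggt
RpLP0 (chr3L:22075992-22076142, plus strand): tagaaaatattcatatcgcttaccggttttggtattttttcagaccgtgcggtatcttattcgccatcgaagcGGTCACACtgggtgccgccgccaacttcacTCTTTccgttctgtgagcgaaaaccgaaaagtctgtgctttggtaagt
RpL37A (chr2L:5070900-5071050, plus strand): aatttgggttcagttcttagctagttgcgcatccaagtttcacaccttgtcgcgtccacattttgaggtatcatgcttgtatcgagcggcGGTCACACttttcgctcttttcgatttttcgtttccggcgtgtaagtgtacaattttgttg
RpL28 (chr3L:3222910-3223060, minus strand): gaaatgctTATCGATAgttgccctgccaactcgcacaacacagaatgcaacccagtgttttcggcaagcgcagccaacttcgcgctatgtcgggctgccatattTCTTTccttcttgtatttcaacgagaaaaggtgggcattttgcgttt
RpS12 (chr3L:13023252-13023402, plus strand): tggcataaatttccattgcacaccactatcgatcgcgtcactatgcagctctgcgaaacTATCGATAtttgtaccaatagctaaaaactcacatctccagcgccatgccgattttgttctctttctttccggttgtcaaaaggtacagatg
RpS14a (chrX:7933642-7933792, plus strand): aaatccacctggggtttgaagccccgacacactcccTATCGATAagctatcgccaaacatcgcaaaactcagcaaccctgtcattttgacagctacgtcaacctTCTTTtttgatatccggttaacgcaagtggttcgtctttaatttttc
RpS14b (chrX:7934798-7934948, plus strand): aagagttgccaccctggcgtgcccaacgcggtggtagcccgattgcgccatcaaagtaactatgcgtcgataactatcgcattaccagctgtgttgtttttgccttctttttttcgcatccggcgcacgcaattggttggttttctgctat
RpL5 (chr2L:22536834-22536984, minus strand): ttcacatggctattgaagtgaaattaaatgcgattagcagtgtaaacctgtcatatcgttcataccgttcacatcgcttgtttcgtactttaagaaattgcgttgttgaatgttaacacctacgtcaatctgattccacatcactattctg
RpL21 (chr2L:22247825-22247975, minus strand): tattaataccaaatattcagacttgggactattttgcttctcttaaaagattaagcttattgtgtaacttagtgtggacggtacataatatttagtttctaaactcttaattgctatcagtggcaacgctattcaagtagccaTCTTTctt
In RpL23A, RpL14, RpL7, RpLP0 and RpL28 the C of the initiator lies within 5 bp of the start shown, and the summits lie 84, 38, 47, 25 and 33 bp upstream of that start. In RpS27 the summit was 1 bp upstream of the first start, and the marked initiator belongs to a second annotated start downstream. RpL37A, RpS12 and RpS14b have no marked initiator in the window, with summits 21 bp upstream, 22 bp downstream and 34 bp upstream of the start shown. RpS14a has both a Dref site and an initiator, with its weaker summit 1 bp upstream of the start. In RpL21 the marked initiator belongs to a second annotated start, and RpL5 has no marked element in the window. RpL5 and RpS14b each have an initiator at another annotated start that lies outside the window shown.

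The 10 bound members of highest signal were RpS27, RpL23A, RpL32, RpL41, RpL14, RpL7, RpL28, RpS10b, RpS25 and RpS20. RpS27, a zinc-finger protein of the small subunit, had a signal of 552 and rank 51 of the optimal list, with its peak at chr3R:25247377-25247667. It ranked 92 in replicate 1 (signal 197) and 37 in replicate 3 (signal 350). RpL23A, which lies by the exit of the peptide tunnel, had 420 at chr3L:1668626-1668876, with rank 116 in replicate 1 (174) and 82 in replicate 3 (244). RpL32, often used as a reference gene for fly expression, had 397, with ranks 89 and 127 (199 and 194). These 3 genes were therefore within the 127 highest peaks of either replicate.

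RpL41, which encodes a very short peptide, had 396, with ranks 131 and 94 in replicates 1 and 3. RpL14 had 370, with ranks 136 and 110. RpL7 had 318, with ranks 221 and 133. The remaining 4 of the 10, RpL28 (296), RpS10b (290), RpS25 (288) and RpS20 (275), ranked between 168 and 368 in the replicates. At the other end of the optimal list, RpS14b (101), RpL9 (93.2), RpS18 (90.3), RpS7 (86.7) and RpS30 (85.9) had the lowest signals of the bound members. RpS30 was at rank 2592 of 2697, with rank 2588 in replicate 1 and 3311 in replicate 3.

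The summits of bound members lay close to the start of the gene. Of the 57 strongest summits, 56 were within 500 bp of an annotated TSS of the gene itself (98.2%), beside 1661 of 2694 other bound genes (61.7%). The interval ran to the gene's end, and the median gene length was 1429 bp in bound members and 4216 bp in other bound genes. Longer genes left more room for a distant summit. How much of the difference goes with gene length was not tested. Among those within 500 bp, the median position of members was 21.5 bp upstream of the TSS and the median distance 27.0 bp (n = 56), and that of other genes was 104 bp upstream and 122 bp (n = 1661). Within 50 bp of the TSS lay 38 of the 56 (67.9%, Wilson 54.8 to 78.6), beside 21.1% of the other genes. Within 100 bp lay 51 (91.1%), beside 43.0%. Upstream of the TSS were 43 summits and downstream 13. Over 100 bp upstream lay 4 of the members (7.14%) and 51.4% of the other genes. A peak could count for several of the other genes, neighbours of members included, while the members' strongest peaks were distinct. For the same member, the offsets from the nearest annotated TSS in replicates 1 and 3 differed by a median of 19.0 bp. Where a gene has several starts, the 2 offsets can refer to different starts. Over all optimal peaks found in both, summit positions differed by a median of 24.0 bp, which is another measure. Only replicate peaks that cover the summit were taken, so a close position was partly set in advance.

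**Figure D2:**
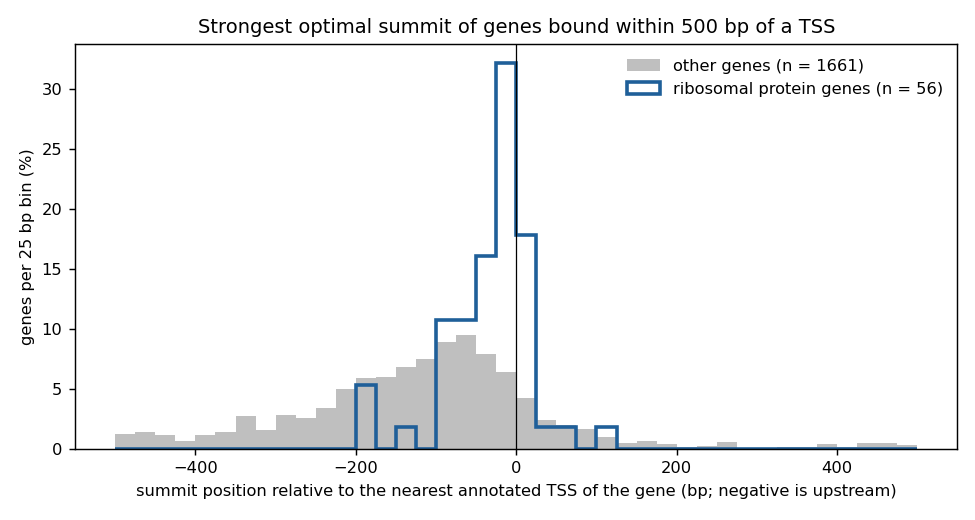
Position of the strongest optimal summit relative to the nearest annotated TSS of the gene (bp, negative is upstream) as the percentage of genes in 25 bp bins, for ribosomal protein genes (line, n = 56) and other protein-coding genes (filled, n = 1661) bound within 500 bp of a TSS. The line is highest in the bins that touch the TSS, where the median is 21.5 bp upstream, and the filled histogram is broad and centred further upstream, at 104 bp.

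Many of these promoters are shared with a second gene that runs the other way. A protein-coding gene on the opposite strand started within 1 kb upstream of 39 of the 57 bound members (68.4%, Wilson 55.5 to 79.0) and of 17 of the 36 unbound members (47.2%, 32.0 to 63.0). The share was 35.2% over all genes and 53.3% over other bound genes. Even so, the summit was nearer to another gene's TSS in 6 of 57 members and in 37.5% of other bound genes. A peak could count for several of the other genes, so these shares are not like for like. The 6 members included RpL32 with CG7943 (192 bp from its own TSS and 117 bp from the other), RpS20 with CG17271 (196 and 137 bp), RpLP0-like with 14-3-3zeta (71 and 16 bp), RpL13 with Dref (138 and 54 bp) and RpS19b with CG5854 (813 and 431 bp). RpS27A had no opposite-strand neighbour by this rule, and its summit was 88 bp from its own TSS and 88 bp from that of Ip259. The gene that shares the promoter of RpL13 encodes Dref, the promoter-binding factor named above. RpS19b was the 1 bound member whose summit lay beyond 500 bp.

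The extra summits of 3 members lay away from the gene's start. In RpL8 the strongest summit (signal 152) was 2 bp downstream of the TSS, a second (112) was 989 bp upstream and 73 bp from the TSS of msn, and the last (101) was 747 bp downstream. In RpL13A the first (200) was 58 bp upstream, and the second (176) was 1280 bp upstream and 43 bp from the TSS of Dph4. In RpS28b the first (signal 198) was 10 bp upstream, and the other (134) was 833 bp upstream and 40 bp from the TSS of l(1)G0320. In all 3 genes the strongest summit was thus the one at the gene's own start.

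Genes of both subunits were bound, and the intervals of their shares overlapped in each list described here. Of the large subunit genes 35 of 54 were bound (64.8%, Wilson 51.5 to 76.2), and of the small subunit genes 22 of 39 (56.4%, 41.0 to 70.7). In replicate 1 alone the shares were 64.8% and 51.3%, and in replicate 3 alone 66.7% and 53.8%. Among the 1348 highest optimal peaks they were 55.6% (42.4 to 68.0) and 35.9% (22.7 to 51.6). Among the 5000 highest pooled peaks they were 75.9% and 74.4%. The strongest peaks had a median signal of 186 in bound large subunit genes (93.2 to 420) and of 166 in small subunit genes (85.9 to 552). The median distance of the summit from the TSS was 35.0 bp for the large and 22.0 bp for the small subunit. Genes of 1 library are not replicates of a condition, so no test of the subunits was made.

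The genes of the P stalk, the flexible arm of the large subunit that engages translation factors, were not alike. RpLP0, the base of the stalk, had a signal of 239 and ranks of 480 and 232 in replicates 1 and 3. RpLP1 had 112, with ranks of 2266 and 1190. RpLP2, the partner of RpLP1, was unbound, with 58.5 in the pooled list, no peak at that summit in replicate 1 and rank 3770 in replicate 3. The genes that encode ubiquitin fused to a ribosomal protein also differed. RpS27A was bound, with a signal of 112 and ranks of 4249 and 1213, and RpL40 was unbound, with 46.3 at a summit 861 bp downstream of its TSS. The gene sta, which encodes a small subunit protein related to the laminin receptor, was bound at 128, 20 bp upstream of its TSS, with ranks of 1248 and 1339.

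In most pairs of copies or -like relatives, 1 gene was bound and the other was not. Of the 27 genes with a copy or a -like relative, 15 were bound (55.6%, Wilson 37.3 to 72.4), and of the 66 genes without one 42 were (63.6%, 51.6 to 74.2). Of 13 pairs, both genes were bound in 3, 1 gene in 9 and neither in 1. Both were bound in RpL34a (137) and RpL34b (251), in RpS19a (102) and RpS19b (174), and in RpLP0 (239) and RpLP0-like (186). The summits of RpS19b and RpLP0-like were nearer to another gene's TSS, as given above. Neither was bound in RpL10Aa, which had no pooled peak, and RpL10Ab (71.6). A further relative of the RpS28 pair, RpS28-like, was unbound (27.6).

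The 9 split pairs ranged from identical proteins to distant relatives. RpS14a and RpS14b encode the same 151 residues on chromosome X, with starts 1156 bp apart. RpS14b was bound with 101 (ranks 1416 and 2065), and RpS14a was not, with 55.1 (ranks 23850 and 3576) at a summit 1 bp upstream of its TSS. How the authors treated reads that match both copies is not given in the sources used here, so the levels of this pair are uncertain. The same limit holds for RpS15Aa and RpS15Ab, whose coding sequences are 98.2% identical, beside 97.8% for the RpS14 pair. RpS15Aa was bound (154), and RpS15Ab, 97.7% identical in protein, was just outside the optimal list (82.4), at a summit 1728 bp from its own TSS and 30 bp from that of Prosbeta5, a proteasome gene. RpS28b had 198 and RpS28a 37.2 (81.5% identity). RpS5a had 174 and RpS5b 34.3 (79.0%), and RpS5b is known for its expression in the ovary. RpL37-1 had 108 and RpL37-2 no pooled peak (73.1%). RpS10b had 290 and RpS10a no pooled peak (72.9%). RpL22 had 242 and RpL22-like, known from the male germ line, 26.2 (43.4%).

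Of the more distant relatives, RpL7 had 318 and RpL7-like 55.5 (36.5% identity). RpL24 had 254 and RpL24-like 65.9 (32.9%). The counterparts of RpL7-like and RpL24-like in yeast are factors of ribosome assembly. In 7 of the 13 pairs 1 copy lies on chromosome X and the other on an autosome, a grouping made after the values were seen. The copy on X was bound in 7 of the 7 pairs and the autosomal copy in 1 of 7, RpS19b, whose summit was nearer to CG5854. Over chromosome X as a whole 12 of 15 members and 19.1% of all genes were bound. Of the single-copy members, 4 of 6 on X and 38 of 60 on the autosomes were bound (66.7% and 63.3%).

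**Figure D3:**
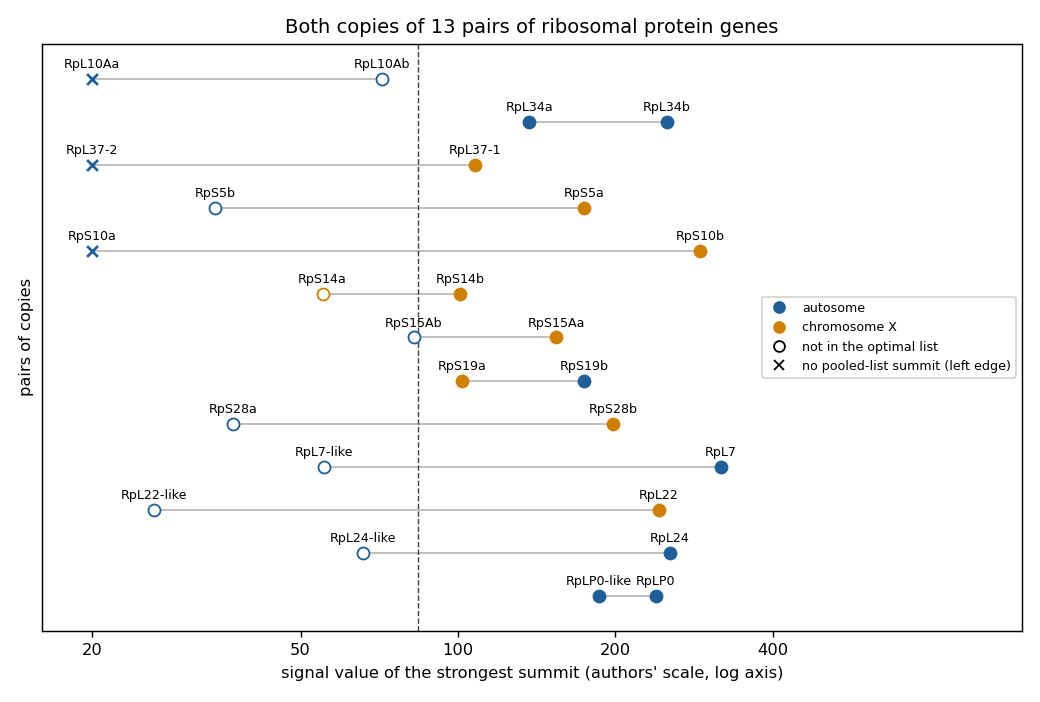
Signal value (log axis, the authors' scale) of the strongest summit for both copies in 13 pairs of ribosomal protein genes, coloured by chromosome, with open points for genes outside the optimal list and crosses for genes with no pooled summit. The dashed line is the lowest optimal signal, 84.0; both copies lie to its right in 3 pairs, 1 copy in 9 and neither in 1.

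A weaker peak was found at most of the 36 unbound members, as it was at most unbound genes. A pooled summit lay in the interval of 29 of them (80.6%), beside 66.8% of the 11194 unbound genes of all kinds. Its signal in the 29 had a median signal of 55.5 (26.2 to 82.4), and in 20 of the 29 the summit fell in a peak of both replicates. In 16 of the 29 the strongest summit was within 500 bp of the gene's own TSS and nearest to it. In 8 it was over 500 bp away with the gene's own TSS still the nearest, and in 5 it was over 500 bp away with another gene's TSS nearer. The 10 unbound members of highest signal were RpS15Ab (82.4), RpS2 (80.0), RpL36A (78.7), RpL35 (76.8), RpL10Ab (71.6), RpS15 (68.8), RpS6 (67.3), RpL10 (66.9), RpL24-like (65.9) and RpL29 (65.5). The lowest bound member, RpS30, had 85.9, so members just inside and just outside the optimal list differed little in signal.

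Several of these had their summit at the gene's own start. RpS2, a core protein of the small subunit, had its summit 10 bp downstream of the TSS, with ranks of 2679 and 5218 in replicates 1 and 3. RpL36A had its summit 4 bp upstream, with ranks of 3493 and 3967. RpS6, the target of S6 kinase, had its summit 8 bp downstream, with ranks of 14845 and 3235. RpL35 differed from them: its strongest pooled summit was 548 bp upstream and 41 bp from the TSS of Rab18. The peak at that summit ranked 6115 in replicate 1 and 2472 in replicate 3. RpL35 still had a summit among the 2697 highest peaks of each replicate, in replicate 1 from another peak.

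No pooled summit was found for 7 members, RpL5, RpL15, RpL21, RpL38, RpL37-2, RpL10Aa and RpS10a (7.53%, beside 26.6% of all genes). RpL37-2, RpL10Aa and RpS10a are second copies in regions with 262, 313 and 169 pooled summits within 500 kb. RpL5, RpL15 and RpL38, single-copy genes near the centromeric ends of their chromosome arms, had 18, 0 and 7, and RpL21 had 54, where the median over all genes was 271. At most 50 pooled summits within 500 kb were found around 150 of all genes; 0 of these were bound and 116 had no pooled summit. Whether reads of these regions could be placed uniquely was not tested.

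The sequence elements known from ribosomal protein promoters were found in both bound and unbound members. A polypyrimidine initiator, taken as CCTTT or TCTTT on the gene's strand with its C within 5 bp of an annotated TSS, was found in 37 of 57 bound members (64.9%, Wilson 51.9 to 76.0) and 19 of 36 unbound members (52.8%, 37.0 to 68.0). It was found in 3.31% of all genes and 4.38% of other bound genes. In the 37 bound members with the initiator the summit lay a median of 40.0 bp upstream of its C, and 34 of the 37 summits were upstream of it. Motifs of fixed letters were then searched on both strands from 250 bp before to 50 bp after the gene's start. The Dref site TATCGATA was in 29.8% of bound and 30.6% of unbound members, and in 9.36% of all genes. The M1BP site GGTCACAC was in 15.8% and 16.7%, and in 7.70% of all genes. One or the other was in 24 of 57 bound and 16 of 36 unbound members.

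Shares of the other motifs varied. CAATTA and TAATTA differ in their first letter alone, so the same place cannot match both, though shifted matches can overlap. The TATA box TATAAA was in 47.4% of bound members, 18 of 36 unbound members and 45.8% of all genes. The GAGA factor site GAGAGAG was in 0 of 57 and 0 of 36, with upper limits of 6.31% and 9.64%, and in 5.87% of all genes. The Repo site CAATTA was in 36.8% of bound members (25.5 to 49.8), 19.4% of unbound members (9.75 to 35.0) and 25.2% of all genes. The related homeodomain site TAATTA was in 21.1%, 38.9% and 20.4%, and with 150 bp either side of the start in 10.5%, 19.4% and 16.8%. The E-boxes CAGCTG and CACGTG were in 8.77% and 8.77% of bound members, 11.1% and 8.33% of unbound members, and 17.7% and 4.20% of all genes. With 150 bp either side of the start, CACGTG was in 21.1% of bound and 13.9% of unbound members, beside 4.20% of all genes. Within 100 bp of the strongest summit, CAATTA was in 10 of 57 bound members (17.5%), beside 17.4% of the 1487 optimal peaks at promoters. The Dref site was within 100 bp of 15 of the 57 summits (26.3%), beside 8.47% of those promoter peaks, and the M1BP site of 8 (14.0%), beside 5.38%. In the same windows CACGTG was in 10.5%, beside 3.36%, and CAGCTG in 7.02%, beside 13.9%. TATAAA was in 15.8%, beside 25.7%, TAATTA in 8.77%, beside 12.8%, and GAGAGAG in 0.00%, beside 5.58%. A match describes the letters in the window and shows no binding by the factor.

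**Figure D4:**
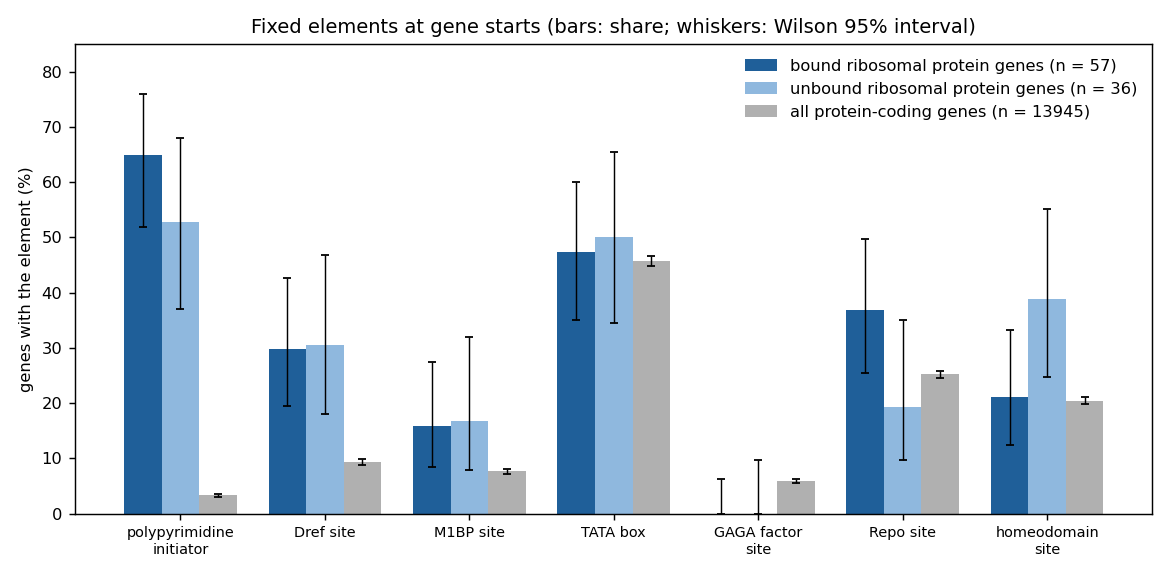
Percentage of bound ribosomal protein genes (n = 57), unbound ribosomal protein genes (n = 36) and all protein-coding genes (n = 13945) with each element at the gene start, with Wilson 95% intervals as whiskers. The polypyrimidine initiator is in 64.9%, 52.8% and 3.31%, and the Dref site in 29.8%, 30.6% and 9.36%.

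The structure of the genes was compared as counts and medians. More than 1 annotated TSS was found in 57.9% of bound members (Wilson 45.0 to 69.8), 33.3% of unbound members (20.2 to 49.7), 26.5% of all genes and 44.9% of other bound genes. The median gene length was 1429 bp in bound and 1126 bp in unbound members, beside 2166 bp over all genes and 4216 bp over other bound genes. The median share of G and C in the 300 bp at the start was 38.3% and 34.7%, beside 38.0%. A snoRNA gene lay inside 21 of 57 bound members (36.8%) and 8 of 36 unbound members (22.2%), up to 14 in RpS5a. By chromosome, 10 of 19 members were bound on 2L, 10 of 21 on 2R, 9 of 14 on 3L, 15 of 23 on 3R, 12 of 15 on X and 1 of 1 on chromosome 4. Of all genes 19.3% were bound on 2L, 18.9% on 2R, 20.6% on 3L, 20.7% on 3R and 19.1% on X. The gene on chromosome 4, RpS3A, had a signal of 114 with 62 pooled summits within 500 kb, where 6.25% of all genes on that chromosome were bound.

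More of the bound members ranked higher in replicate 3 than in replicate 1. The peak at the strongest summit ranked higher in replicate 3 in 41 of 57 members (71.9%), beside 50.5% of the 2681 optimal peaks present in both lists and 45.5% of 440 promoter peaks within 50 bp of a TSS. The rank number in replicate 3 was at most 0.5 of that in replicate 1 in 18 members (31.6%), and the converse was seen in 1. Over the 2681 peaks these shares were 15.7% and 12.4%. Examples were RpS28b (1572 in replicate 1 and 301 in replicate 3), RpL27A (3240 and 685), RpS19a (4022 and 1057) and RpS27A (4249 and 1213). In the other direction, RpL19 ranked 282 in replicate 1 and 648 in replicate 3. Of the large subunit genes 28 of 35 and of the small subunit genes 13 of 22 ranked higher in replicate 3. The ranks of the 57 members in the replicates had a Spearman correlation of 0.746, a description across genes of the same libraries, beside 0.632 over the 2681 peaks. With 1 library for each replicate number, the replicate and its library cannot be told apart.

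**Figure D5:**
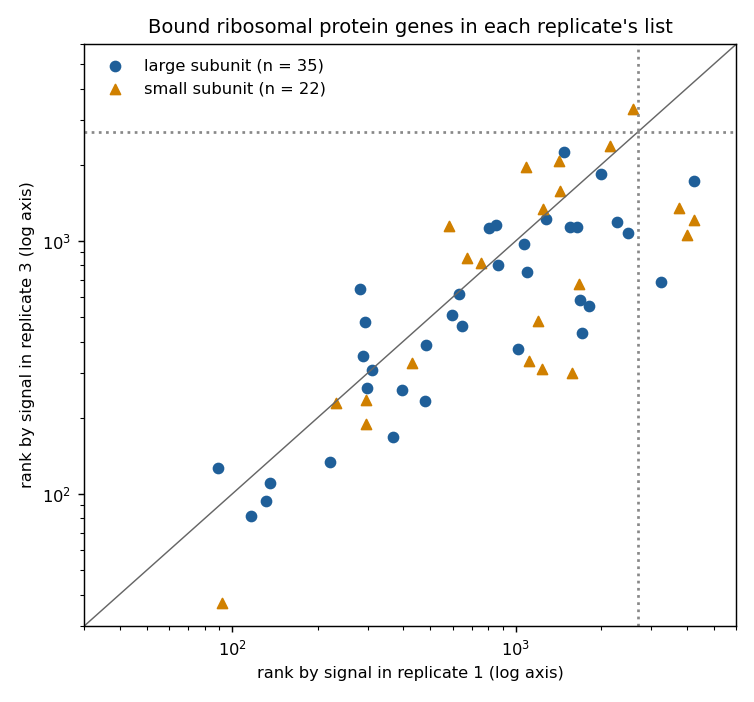
Rank by signal of the peak at the strongest summit of each bound ribosomal protein gene in the list of replicate 1 (x axis) and replicate 3 (y axis), both on log axes where smaller is stronger, by subunit. Of the 57 points 41 lie below the line of equal rank, and the dotted lines mark rank 2697; RpS27 lies lowest, at 92 and 37.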

How the data were processed

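ChIP-seq peak lists of repo-GFP embryos, replicates 1 and 3, were used on dm6. Per the deposited text files, each replicate list held peaks and background made as input for IDR, the pooled list came from both replicates, and the optimal list was kept after IDR thresholding. The sources used here do not name the aligner, peak caller or IDR threshold. The deposited lists give the authors' signal value per peak, the −log10 of a q-value, which had its highest value in 2625 of 2697 optimal peaks and was not used for ranking, and the summit's offset. The dm3 lists were not used here.

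Summits were assigned to genes of Ensembl release 115 from 2 kb upstream to the gene's end with Python 3.11.15, pandas 2.3.3 and numpy 2.4.6; the assignment was checked on simulated summits. Proteins translated from the reference were aligned with Biopython 1.88. Shares carry Wilson 95% intervals (scipy 1.17.1), for counting error only. Members and lists were chosen with earlier results of these data known, so no test was made over members. Genes named were the 10 highest and 5 lowest bound members, those with several or distant summits, copies, stalk and ubiquitin fusion genes, sta, the 10 highest unbound and those with no pooled peak; genes named for rank differences, for their chromosome or as other examples were chosen after their values were seen. The result of 1 gene under this rule is not reported here.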

Additional observations from a re-analysis of the deposited data

How the results depend on the processing

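The number of bound members was 44 with the 1348 highest optimal peaks (11.3% of all genes) and 70 with the 5000 highest pooled peaks (31.1%). It was 57 and 56 with summits within 1 kb and 500 bp of a TSS (15.7% and 13.6% of all genes), and 59 with any overlap of a peak (20.7%). With 1 replicate left out it was 55 to 57, with 35 to 36 for the large subunit, 20 to 21 for the small subunit, 15 to 15 for copies and 40 to 42 for single genes. With the 1348 highest peaks, a list built to hold fewer peaks, the small subunit count fell from 22 to 14 and the large subunit count from 35 to 30. Over all protein-coding genes the count fell from 2751 to 1580. Why the counts fell unequally was not tested. The median summit distance, 29.0 bp over all 57, was 36 bp from the gene's outermost start alone, a setting that drops the other starts, and 27.0 to 34.0 bp with 1 replicate left out. With the C of the initiator within 10 bp, the element was in 86.0% of bound and 72.2% of unbound members. With 150 bp either side of the start, CACGTG was in 21.1% of bound and 13.9% of unbound members (4.20% of all genes), and TAATTA in 10.5% and 19.4% (16.8%). No paired analysis was possible because the series has 1 group and no second condition. Depth is unknown, so a gene without a peak was not detected in these lists and is not shown to be unoccupied.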
